A study of Mus musculus with 4 samples.

Results

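The nuclear genes of oxidative phosphorylation were taken as the gene rows of the count table whose symbols begin Nduf followed by a, b, c, s or v and a digit, are Sdha, Sdhb, Sdhc or Sdhd, or begin Uqcr, Cox4 to Cox8 or Atp5, with rows marked as pseudogenes by the ending -ps left out. This naming rule gave 88 of 47937 gene rows. There were 40 members in complex I, 4 in complex II, 8 in complex III, 19 in complex IV and 17 in complex V, spread over 19 chromosomes. The rule used no measured value. It follows names, so it misses subunits with other names (Cyc1, Ndufab1, Usmg5) and takes in Atp5s, which is named after the enzyme but is not one of its subunits, and 4 rows that the annotation types as processed pseudogenes (Ndufb4c, Ndufs6b, Ndufa11b and Cox6c2).

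The study exposed mouse embryonic fibroblasts (MEF) to genistein, an isoflavone of soy that inhibits tyrosine kinases and poisons topoisomerase II, and asked how heterochromatic repeats respond. Total RNA was sequenced from 2 libraries of wild-type untreated MEF and from 2 libraries of MEF given 50 µM genistein for 24 h. The genotype field of the genistein libraries holds the treatment and no genotype, and the study's text names DMSO alone as the control while the labels call the control cells untreated. The labels do not say whether the paired libraries of a group came from separate cultures, so the p-values below measure only the spread between these samples, which may be technical.

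Mitochondria make most of the ATP of a resting cell by oxidative phosphorylation. Complex I (NADH dehydrogenase) and complex II (succinate dehydrogenase) pass electrons to ubiquinone, complex III passes them to cytochrome c, and complex IV (cytochrome c oxidase) passes them to oxygen, while complexes I, III and IV pump protons that drive the ATP synthase, complex V. A small set of subunits is encoded in mitochondrial DNA and all others are encoded in the nucleus, where many of their promoters are known targets of the transcription factors NRF1 and GABP.

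After 24 h of genistein, most nuclear subunit genes were modestly lower. Of 22 members grouped here as core 20 fell and 0 rose, with a median log2 fold change (genistein over untreated) of -0.53. Of the 58 tested members outside that group 35 fell and 10 rose, with a median of -0.21. The grouping was chosen with earlier results of these data known. For complex IV, whose catalytic subunits are encoded in mitochondrial DNA, it takes Cox4i1, Cox5a and Cox5b, which surround them. Of the 80 members that passed the low-count filter, 55 fell and 10 rose in the quasi-likelihood test of edgeR (Benjamini-Hochberg adjusted p under 0.05), and 15 were not called. The 55 were 68.8% of the tested members, where 38.2% of all 16240 tested genes were called lower, and the 10 were 12.5%, where 33.5% of all tested genes were called higher. Among the 11642 tested genes with a mean normalised count over 100, which take in 78 of the members, the shares were 47.2% lower and 33.0% higher. The median log2 fold change was -0.27 in the members, with quartiles of -0.49 and -0.07, and -0.03 over all tested genes, with quartiles of -0.43 and 0.44. Normalised counts are relative to the other RNA of a library, so a fall here is relative. In bulk RNA such as this, fewer cells of a type, less of these RNAs per cell and more of other RNA cannot be told apart.

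In 61 members both genistein libraries lay below both untreated libraries, in 15 both lay above, and in 4 tested members the groups overlapped. Over all tested genes the groups were separated downward in 44.6% and upward in 40.7%. The study further asked for a change beyond 1 log2 unit in either direction and for more than 100 normalised counts on average, and no member met these along with the adjusted p, whereas 8.08% of all tested genes did. That count of 0 members was the same with DESeq2 and with an unadjusted p under 0.05 in place of the adjusted one. Summed over all members, the untreated libraries held 243002 and 237011 normalised counts and the genistein libraries 180988 and 183161, or 75.9% of the untreated level. The same sum over all tested genes was 93.3% of untreated, the reference for the summed levels below. Members took 0.774% to 0.791% of all counts in untreated cells and 0.613% to 0.633% in genistein-exposed cells.

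**Figure D1:**
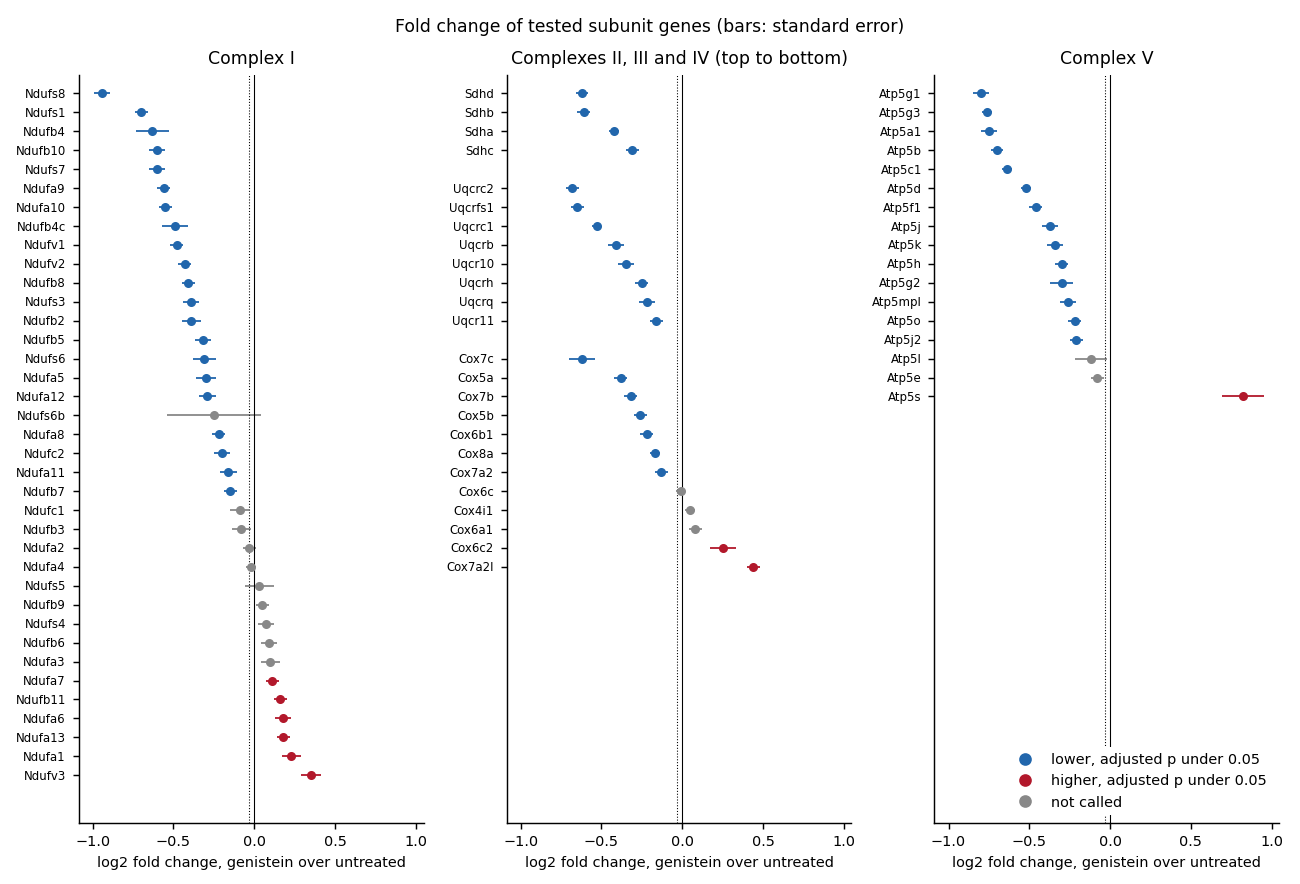
Log2 fold change, genistein over untreated, of tested members by complex (Cox6b2, which has no count in untreated cells, is left off), with bars of 1 standard error. Blue points are called lower, red points higher and grey points neither, and the dotted line marks the median of all tested genes, -0.03. All 4 members of complex II and all 8 of complex III lie left of 0, while complexes I and IV hold points on both sides.

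The 4 libraries held 28591958 to 31464284 counts over genes and repeats, and the scaling factors (TMM) ran from 0.974 to 1.034. Replicate libraries differed by a median of 0.04 log2 units over the members in either group and by at most 0.26. Over the members this spread was close to that of counting alone, with a chi-square per degree of freedom of 1.07 in untreated and 0.95 in genistein libraries, and over all rows it was larger, 4.35 and 9.2, so the libraries were not copies of each other. Fibroblast markers were abundant (summed normalised counts of 449875 and 461924 in untreated and 427373 to 436990 in genistein libraries, 8 of 10 tested lower and 2 higher), although Thy1 had no count in any library and Lum had at most 9.99 normalised counts. Markers of other cell types were low. The epithelial list summed to 722 to 773 in untreated and 147 to 149 in genistein libraries and was nearly all Krt14, with Epcam and Krt5 at 0, both of its tested genes being lower. The endothelial list went from 26.0 and 33.9 to 99.2 and 99.4 (Kdr higher, Cdh5 at most 1 count), the blood list from 65.6 and 84.9 to 211 and 214 (Cd68 higher, Adgre1, Hbb-bs and Hba-a1 at 0), the muscle list from 109 and 137 to 49.6 and 49.7 (Tnnt2 lower and Acta1 higher, Myod1, Ckm and Actc1 at 0) and the neuronal list from 860 and 916 to 750 and 782 (Tubb3 lower, Snap25 and Rbfox3 at 0). Their part in the results below was not tested.

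Sequence upstream of the start sites is shown first for members whose promoter windows hold letters of the factors named above. RefSeq promoter windows of build GRCm38.p6, from 250 bases before to 50 bases after a start, were matched for 68 of the 88 members (73 windows). The letters searched on both strands were GCGCANGCG for NRF1, CCGGAAG for GABP and other ETS factors, AAGATGGCG for YY1, CCAAT for NF-Y and TATAAA for the TATA box. NRF1 letters stood in 28.8% of the members' windows, against 13.2% of the 12449 windows of all tested genes and 6.25% of all 32851 windows. ETS letters stood in 21.9%, against 17.6% and 8.86%, YY1 letters in 9.59%, against 3.0% and 1.40%, and CCAAT in 42.5%, against 38.3% and 37.4%. TATAAA stood in 11%, against 7.19% and 13.6%. A match is a description of letters, not a bound site. The NRF1, ETS and YY1 letters each contain the pair CG. The median percentage of bases in CG pairs was 12.7 in the members' windows and 4.67 in all windows. How far this difference accounts for the shares of matches was not tested. In all, 8 members held at least 2 of the NRF1, ETS and YY1 kinds in a window, and the stretches below are the parts of 5 of them that lie before the start and outside any annotated exon, followed by the lowest (Ndufs8) and the highest (Ndufv3) called member of complex I. Each is printed 5′ to 3′ on the strand of the gene, with the matched letters in capitals. Matches elsewhere in a member's windows are not shown. Among these are ETS letters of Ndufs8, Cox6a1 and Atp5h and NRF1 letters of Sdhd and Uqcr11.
Sdhd, chr9:50603850-50603909, minus strand, ETS letters on the opposite strand: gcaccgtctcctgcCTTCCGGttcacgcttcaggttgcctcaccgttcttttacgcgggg
Uqcr11, chr10:80406832-80406931, minus strand, ETS letters: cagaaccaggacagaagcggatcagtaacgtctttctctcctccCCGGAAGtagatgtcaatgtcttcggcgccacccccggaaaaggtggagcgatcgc
Cox6a1, chr5:115348984-115349083, minus strand, NRF1 and CCAAT letters: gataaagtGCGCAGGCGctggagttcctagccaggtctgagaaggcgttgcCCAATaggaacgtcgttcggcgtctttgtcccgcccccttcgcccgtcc
Atp5h, chr11:115419965-115420064, minus strand, NRF1 letters and a pair of reversed CCAAT: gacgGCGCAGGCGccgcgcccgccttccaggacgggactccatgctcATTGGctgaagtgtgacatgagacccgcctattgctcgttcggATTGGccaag
Atp5l, chr9:44920888-44920987, minus strand, NRF1 and ETS letters on the opposite strand: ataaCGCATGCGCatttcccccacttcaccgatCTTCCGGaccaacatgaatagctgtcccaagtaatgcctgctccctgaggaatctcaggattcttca
Ndufs8, chr19:3912775-3912874, minus strand, a pair of CCAAT: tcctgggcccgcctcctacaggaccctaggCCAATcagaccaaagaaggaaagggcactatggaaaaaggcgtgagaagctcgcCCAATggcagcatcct
Ndufv3, chr17:31520015-31520114, plus strand, reversed CCAAT: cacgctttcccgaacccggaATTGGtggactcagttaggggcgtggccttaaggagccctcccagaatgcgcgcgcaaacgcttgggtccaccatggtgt
These members ranged from a log2 fold change of -0.94 (Ndufs8) to 0.35 (Ndufv3). Of those with NRF1 letters in a window, Cox6a1 (0.08) and Atp5l (-0.12) were not called. Atp5h (-0.30), Sdhd (-0.62) and Uqcr11 (-0.16), which hold them too, were called lower. The median log2 fold change was -0.30 in the 20 tested members with NRF1 letters and -0.26 in the tested members with a window and no such letters, and for ETS letters it was -0.23 in 16 members and -0.30 in the others. Of the 10 windows of members called higher, 1 held NRF1 letters and 0 held ETS letters, while among the 50 windows of members called lower 17 held NRF1 and 12 held ETS letters. Of the 10 windows of members not called, 3 held NRF1 and 4 held ETS letters.

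In complex I, 22 of the 38 tested members fell, 6 rose and 10 were not called, with a median log2 fold change of -0.23 (-0.10 with length offsets in the fit). The summed normalised counts went from 62859 and 61393 to 52921 and 53614, or 85.7% of untreated. The 7 core members, which carry the flavin, the iron-sulphur clusters and the quinone site, all fell, with a median of -0.48. The 31 tested accessory members had a median of -0.15, 15 of them lower (48.4%) and 6 higher (19.4%). That share lower lies near the 47.2% of all tested genes with a mean normalised count over 100. All 6 members of the quinone-reducing module fell (median -0.48). In the NADH-oxidising module 5 of 10 fell (50%, median -0.16) and in the membrane arm 10 of 19 tested (52.6%, median -0.15), shares near that background.

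Ndufs8, an iron-sulphur subunit of the quinone module (chr19:3908863-3912774, minus strand), had the lowest fold change of all members. Untreated replicates 1 and 2 had 1468 and 1541 normalised counts and genistein replicates 1 and 2 had 774 and 796 (the order used throughout), 52.1% of the untreated mean (log2 fold change -0.94 ± 0.05 SE, adjusted p = 1.2e-10). The genistein libraries lay far below both untreated libraries and close to each other. Ndufs1, the largest subunit and the holder of several iron-sulphur clusters (chr1:63143596-63176833, minus strand), had 4145 and 4105 against 2492 and 2596 (-0.70 ± 0.04, adjusted p = 3.8e-11). Ndufs7, which carries the last cluster before the quinone, had 1681 and 1537 against 1051 and 1077 (-0.60 ± 0.05, adjusted p = 3.6e-08). In each of these 3 core genes the groups stood apart by far more than the libraries of a group.

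Further core members fell as well. Ndufv1, which binds NADH and the flavin, had normalised counts of 2622 and 2612 against 1844 and 1897 (-0.48 ± 0.04, adjusted p = 8.6e-09), and its partner Ndufv2 had 2326 and 2212 against 1692 and 1681 (-0.43 ± 0.04, adjusted p = 9.7e-08). Ndufs3 had 1403 and 1394 against 1046 and 1082 (-0.39 ± 0.05, adjusted p = 2e-06). No core gene overlapped between the groups, where 44.6% of all tested genes were separated downward and 40.7% upward. Among the accessory subunits Ndufb4 had 266 and 264 against 173 and 168 (-0.63 ± 0.10, adjusted p = 2.8e-05), and Ndufb10 had 1473 and 1402 against 953 and 944 (-0.60 ± 0.05). Ndufb4 has 1 near-identical copy elsewhere in the genome (390 bp aligned), so reads may be divided. The pseudogene row Ndufb4c had 423 and 453 against 315 and 308 (-0.49 ± 0.08, adjusted p = 3.6e-05).

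The 6 members of complex I that rose were all accessory, with log2 fold changes from 0.11 to 0.35. Ndufv3, a small subunit at the NADH tip (chr17:31520115-31531331, plus strand), had 1053 and 943 normalised counts in untreated and 1259 and 1296 in genistein libraries (0.35 ± 0.06, adjusted p = 3.7e-05). Ndufa1, a membrane-arm subunit encoded on the X chromosome, had 824 and 750 against 901 and 947 (0.23 ± 0.06, adjusted p = 0.0032). Ndufa13, also known as GRIM-19, had 1961 and 1931 against 2192 and 2229 (0.18 ± 0.04, adjusted p = 0.00049), and 30.0% of its exonic bases overlap Tssk6 on the opposite strand. Ndufa6 (0.18), Ndufb11 (0.16) and Ndufa7 (0.11) completed the group. Ndufa7 was the least secure of them: its adjusted p of 0.03 became 0.21 with DESeq2, and it passed 0.05 without genistein replicate 2 but not without any other library.

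The 10 tested members of complex I that were not called lay within 0.25 log2 units of 0. Ndufa4, which was long counted with complex I and is now placed in complex IV, had 4223 and 4065 normalised counts against 4054 and 4133, so its groups overlapped (-0.02 ± 0.03, adjusted p = 0.65). Ndufs4, an assembly-critical subunit whose loss causes Leigh syndrome, had 1052 and 1094 against 1106 and 1146 (0.07 ± 0.05). The others were Ndufc1 (-0.09), Ndufb3 (-0.08), Ndufa2 (-0.03), Ndufs5 (0.03), Ndufb9 (0.05), Ndufb6 (0.09), Ndufa3 (0.10) and the pseudogene row Ndufs6b (-0.25 ± 0.29, 19 to 23 counts a library). With library totals in place of TMM, Ndufs4, Ndufb9, Ndufb6 and Ndufa3 were called higher. Ndufb6 shares 39% of its exonic bases with Smim27 on the opposite strand. Of the members removed by the filter, Ndufa11b had at most 3 counts in a library and Ndufa4l2, a hypoxia-induced relative of Ndufa4, had 0 and 0 against 1 and 1.

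In complex II, the succinate dehydrogenase shared with the citric acid cycle and encoded wholly in the nucleus, all 4 members fell. Sdhd, a membrane anchor (chr9:50596357-50603812, minus strand), had 2858 and 2860 normalised counts in untreated and 1862 and 1851 in genistein libraries (-0.62 ± 0.04, adjusted p = 2.6e-10), and Sdhb, the iron-sulphur subunit (chr4:140961203-140979193, plus strand), had 2071 and 2041 against 1307 and 1382 (-0.61 ± 0.04, adjusted p = 2.7e-09). Sdha, which holds the flavin and oxidises succinate, had 4220 and 4173 against 3082 and 3171 (-0.42 ± 0.03, adjusted p = 1e-08). Sdhc, the other anchor, had 2622 and 2597 against 2062 and 2141 (-0.31 ± 0.04, adjusted p = 1.7e-06). The summed level of the complex was 71.9% of untreated, its median log2 fold change was -0.52, and no gene overlapped between the groups. Over all tested genes the groups were separated downward in 44.6% and upward in 40.7%. Of those with a mean normalised count over 100, 47.2% were called lower.

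In complex III all 8 members fell, with a median of -0.38 (-0.24 with length offsets) and a summed level 74.4% of untreated. The share called lower was 47.2% among all tested genes with a mean normalised count over 100. The core proteins and the Rieske protein fell most. Uqcrc2 (chr7:120635176-120659524, plus strand) had 3384 and 3259 normalised counts against 2063 and 2072 (-0.68 ± 0.04, adjusted p = 8.2e-11). Uqcrfs1, the Rieske iron-sulphur protein that hands electrons to cytochrome c1 (chr13:30540308-30545362, minus strand), had 2451 and 2363 against 1528 and 1546 (-0.65 ± 0.04, adjusted p = 4.6e-10). Uqcrc1 had 4788 and 4676 against 3297 and 3235 (-0.53 ± 0.03, adjusted p = 4.8e-10). The small subunits followed with Uqcrb (-0.41), Uqcr10 (-0.35), Uqcrh (-0.25), Uqcrq (-0.22) and Uqcr11 (-0.16). Uqcr11 had 2874 and 2799 against 2556 and 2528, so its groups did not overlap, but its call was lost with library totals in place of TMM (-0.09, adjusted p = 0.058) and with length offsets (-0.01, adjusted p = 0.91). The 3 core members had a summed level of 65.7% of untreated.

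**Figure D2:**
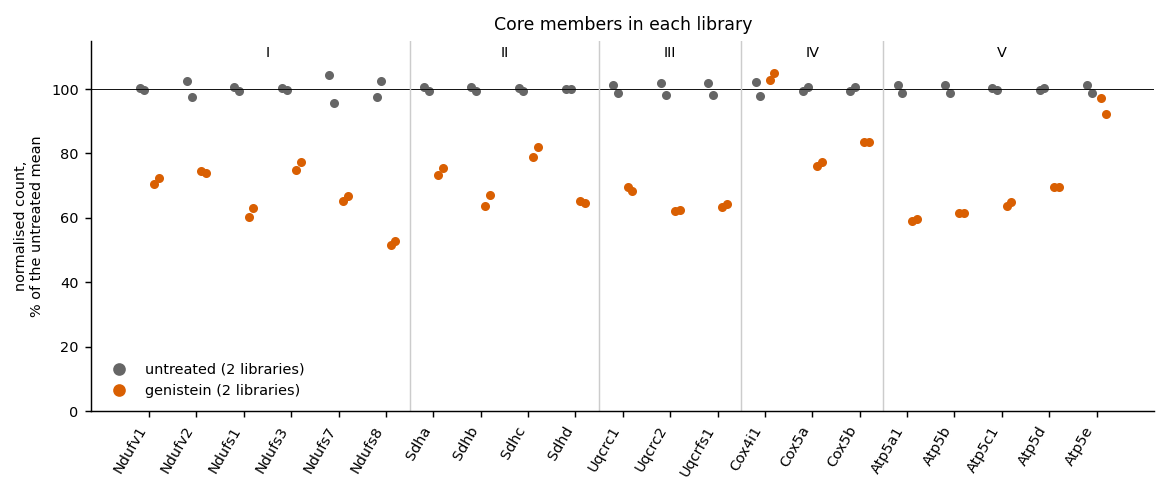
Normalised count of 21 core members in each of the 4 libraries, as a percentage of the untreated mean of the same gene, with complexes I to V from left to right. Grey points are untreated and orange points genistein libraries. Ndufs8 is the lowest at 52.1% on average, and Cox4i1, at 104%, is the plotted gene whose genistein libraries lie above the untreated ones. The genes drawn for complex IV, Cox4i1, Cox5a and Cox5b, are not its catalytic subunits.

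Complex IV, the terminal oxidase, has its catalytic subunits encoded in mitochondrial DNA, and its nuclear members surround them. Of 13 tested nuclear members 7 fell (53.8%), 3 rose (23.1%) and 3 were not called. These shares lie near those of all tested genes with a mean normalised count over 100, 47.2% lower and 33.0% higher. The median was -0.13 (0.00 with length offsets). The summed level was 94.9% of untreated, no lower than the 93.3% of all tested genes. Cox7c (chr13:86044816-86046904, minus strand) had 473 and 498 normalised counts against 313 and 316 (-0.62 ± 0.08, adjusted p = 1.5e-06). It has 3 near-identical copies elsewhere in the genome, between which reads may be divided. Cox5a, which binds a thyroid hormone metabolite, had 2620 and 2649 against 2004 and 2039 (-0.38 ± 0.04, adjusted p = 1.2e-07), and the zinc-binding Cox5b had 2394 and 2418 against 2009 and 2013 (-0.26 ± 0.04, adjusted p = 1.2e-05). Cox4i1, the largest nuclear subunit, had 6229 and 5964 against 6267 and 6393 and was not called (0.05 ± 0.03, adjusted p = 0.16). Cox6c (-0.01) and Cox6a1 (0.08) were not called either. Cox4i1 and Cox6a1 were called higher when the scaling was set from genes alone, with 0.10 and 0.12.

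Several complex IV subunits come as a ubiquitous and a tissue-restricted form, and the ubiquitous form supplied nearly all counts. Cox7b had 3570 and 3516 normalised counts against 2756 and 2923 (-0.32 ± 0.04, adjusted p = 1.1e-06), and its testis form Cox7b2 had no count in any library. Cox8a had 4965 and 4929 against 4332 and 4465 (-0.17 ± 0.03, adjusted p = 0.00019, and -0.02 with an adjusted p of 0.67 with length offsets), with Cox8b and Cox8c at 0 throughout. Cox7a2 had 2610 and 2414 against 2243 and 2353 (-0.13 ± 0.04, adjusted p = 0.014, and 0.054 with DESeq2; log2 fold change 0.00 with length offsets), and its muscle form Cox7a1 had 1 or 2 counts a library. Cox6a2, the muscle form of Cox6a, had 0 and 0 against 1 and 1 counts, and Cox4i2, the lung and hypoxia form of Cox4, had 0 and 1 against 3 and 1. A count of 0 allows up to 3 counts in a library, so for these forms no difference was detectable at this depth.

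The 3 members of complex IV that rose are an assembly-linked protein, a testis form and a pseudogene row. Cox7a2l, also called SCAF1 or COX7RP, which helps join complex III with complex IV into supercomplexes (chr17:83501918-83517330, minus strand), had 2265 and 2216 normalised counts in untreated and 3006 and 3076 in genistein libraries (0.44 ± 0.04, adjusted p = 1.7e-08). Its groups did not overlap. Cox6b2, the testis form of Cox6b (chr7:4751792-4753094, minus strand), had 0 and 0 counts against 11 and 10 (adjusted p = 0.00015), at least 3.31-fold higher against a floor of 3 counts per library, and without either genistein library it did not pass the low-count filter. Its ubiquitous partner Cox6b1 had 2618 and 2414 against 2124 and 2203 (-0.22 ± 0.04, adjusted p = 0.00029, and -0.07 with an adjusted p of 0.15 with length offsets), so Cox6b2 remained a trace of the pair. Cox6c2, a processed pseudogene row with a sequence close to Cox6c, had 334 and 321 against 409 and 366 (0.25 ± 0.08, adjusted p = 0.015, 0.14 with DESeq2, 0.079 without untreated replicate 2 and 0.13 without genistein replicate 1), and reads shared with Cox6c may be divided between the rows.

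In complex V 14 of 17 tested members fell (82.4%), 1 rose and 2 were not called, with a median of -0.34. Among all tested genes with a mean normalised count over 100, 47.2% were lower. The summed level, the lowest of the 5 complexes relative to untreated, went from 113036 and 110149 to 72552 and 72895, or 65.2% of untreated. Most of that sum is the F1 head, the part that forms ATP, whose 5 genes went to 62.3%. Atp5b, the catalytic beta subunit (chr10:128083273-128090391, plus strand), was the most abundant member per kilobase of mRNA, with 24354 normalised counts per kb in untreated and 14979 in genistein cells. Its normalised counts were 47307 and 46017 against 28637 and 28760 (-0.70 ± 0.04, adjusted p = 5e-10). Atp5a1, the alpha subunit, had 24268 and 23641 against 14135 and 14302 (-0.75 ± 0.05, adjusted p = 3.7e-10), and Atp5c1, the rotating gamma shaft, had 7357 and 7324 against 4685 and 4766 (-0.64 ± 0.03, adjusted p = 1.8e-11). Atp5d, the delta subunit at the foot of the shaft, had 4368 and 4400 against 3048 and 3051 (-0.52 ± 0.03, adjusted p = 5.4e-10). Atp5e, the small epsilon subunit, was the exception in the head, with 1914 and 1869 against 1839 and 1746 (-0.08 ± 0.04, adjusted p = 0.12).

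The c ring, which proton flow turns, is made of a single mature protein that 3 genes encode, and all 3 fell. Atp5g1 (chr11:96068852-96075670, minus strand) had the lowest fold change of complex V, with 1887 and 1816 normalised counts against 1087 and 1043 (-0.80 ± 0.05, adjusted p = 2.5e-10). Atp5g3 (chr2:73908447-73911326, minus strand) had 6703 and 6392 against 3857 and 3877 (-0.76 ± 0.03, adjusted p = 6.1e-12), and Atp5g2 had 568 and 546 against 430 and 476 (-0.30 ± 0.07, adjusted p = 0.0013). Per kilobase of mRNA, untreated cells held 9056 normalised counts of Atp5g3, 762 of Atp5g2 and 393 of Atp5g1. The lengths used were those of 1 annotated transcript each: 723 bp for Atp5g3, 731 bp for Atp5g2 and 4715 bp for Atp5g1. The order of Atp5g1 and Atp5g2 rests on that length, since their untreated means were 1851 and 557 normalised counts. Atp5g3 was the highest of the 3 by either measure, with an untreated mean of 6548, and stayed so with genistein at 5348 per kb.

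The 4 genes of the peripheral stalk, which holds the head still, all fell, with log2 fold changes from -0.46 (Atp5f1) to -0.22 (Atp5o) and a summed level of 78.2% of untreated. The small membrane subunits Atp5k (-0.34), Atp5mpl (-0.26) and Atp5j2 (-0.21) fell too. Atp5l had 250 and 257 normalised counts against 245 and 220 and was not called (-0.12 ± 0.10, adjusted p = 0.27). It has 9 near-identical copies elsewhere in the genome, between which reads may be divided. Atp5s, the only member of the complex V name group that rose, had 89.9 and 108 against 168 and 182 (0.82 ± 0.13, adjusted p = 4e-05), and its protein is not part of the enzyme.

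Complex V made up 46.5% of all member counts in either untreated library and 40.1% and 39.8% in the genistein libraries. Complex IV went from 14.4% and 14.3% to 17.8% and 18% and complex I from 25.9% in both to 29.2% and 29.3%, while complex II went from 4.84% and 4.92% to 4.59% and 4.67% and complex III from 8.42% and 8.4% to 8.27% and 8.23%. These are shares of a common total, so a fall in complex V alone raises the others. In each of the 5 complexes the groups did not overlap in this share.

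**Figure D3:**
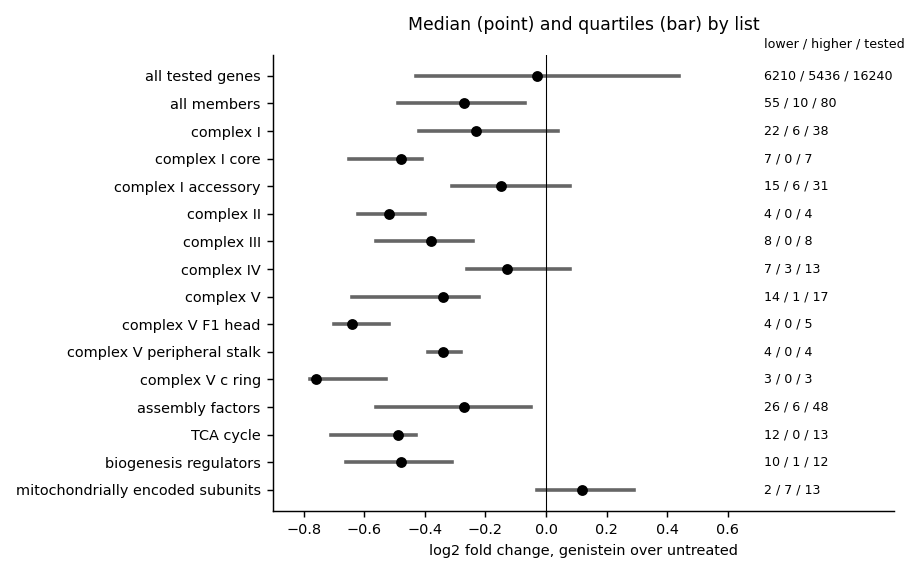
Median log2 fold change (points) and quartiles (bars) of each list, with the numbers of genes called lower, called higher and tested at the right. Among the lists drawn, the c ring (-0.76) and the F1 head (-0.64) have the lowest medians, and the mitochondrially encoded subunits (0.12) lie above all tested genes (-0.03).

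Longer members had lower fold changes. Over the 77 tested protein-coding members, the rank correlation of the log2 fold change was -0.45 with coding length, -0.44 with mRNA length and -0.50 with the number of exons, whereas over all 12213 tested protein-coding genes with a length it was 0.18, 0.19 and 0.09. The same held in complex I (-0.49 with coding length, 36 members) and in complex V (-0.45, 17 members). These are correlations across genes of the same 4 libraries, and genes are not independent replicates. The longest members, such as Ndufs1 (2181 bp coding) and Sdha (1992 bp), are core, but the lengths overlap. Atp5e (156 bp) and Cox5b (387 bp) are short core members, and Ndufv3 (1404 bp) and Ndufa9 (1131 bp) are long ones outside the core. Position in the enzyme and length were not tested apart. GC content of the mRNA had a rank correlation of 0.13. When lengths were put into the fit as offsets, which removes a length trend of all genes, 48 members were lower and 17 higher.

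**Figure D4:**
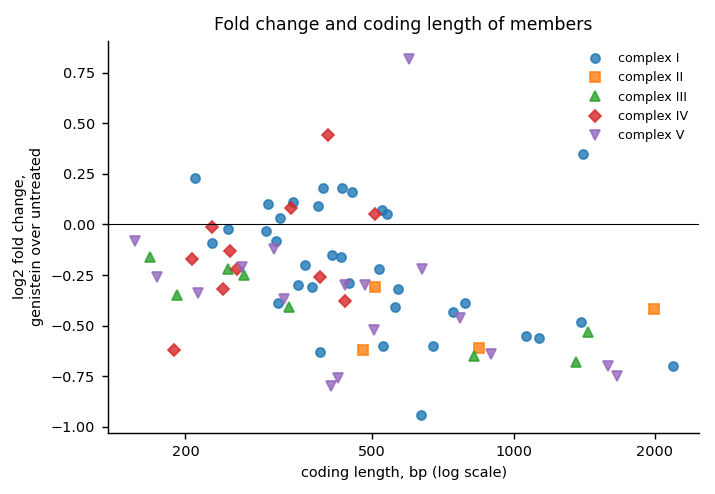
Log2 fold change of the tested protein-coding members against coding length in base pairs on a log scale, marked by complex (Cox6b2 is left off). Among the members shown, Ndufa10 (1065 bp) and all longer ones lie between -0.75 and -0.42 apart from Ndufv3 at 0.35, and shorter members spread on both sides of 0.

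Genes that surround the enzymes were counted from lists in the same fit. For comparison, 38.2% of all tested genes were lower and 33.5% higher. Among those with a mean normalised count over 100 the shares were 47.2% and 33.0%. Of 48 assembly factors, which build the complexes without staying in them, 26 fell (54.2%), 6 rose (12.5%) and 16 were not called. Their median was -0.27, and their share lower was not far above that of the more abundant genes. Ndufaf4, an assembly factor of complex I, was the lowest with 898 and 847 normalised counts against 290 and 297 (-1.57 ± 0.07, adjusted p = 4.8e-12), and the highest of those called were Cox17, a copper chaperone of complex IV (0.36 ± 0.07), and Pet100, another complex IV factor (0.36 ± 0.09). Of 8 further electron-transport genes outside the naming rule 4 fell and 2 rose, counts near the shares of all tested genes. Cycs, cytochrome c itself, had 1548 and 1532 against 715 and 702 (-1.12 ± 0.05, adjusted p = 1.1e-11), and Etfdh, which feeds electrons from fatty acid oxidation, had 805 and 762 against 932 and 954 (0.27 ± 0.06). Cyc1, cytochrome c1 of complex III and picked out after its values were seen, had 4144 and 3933 against 2042 and 2129 (-0.95 ± 0.04). Of 13 citric acid cycle genes 12 fell and 0 rose, with a median of -0.49, and Idh3a was the lowest (-0.91 ± 0.04).

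Of the 13 protein genes of mitochondrial DNA 7 rose (53.8%), 2 fell (15.4%) and 4 were not called, with a median of 0.12. Over all tested genes 33.5% were higher and 38.2% lower. The share of these 13 genes in all counts was 0.831% to 0.873% in untreated and 1% to 1.01% in genistein cells. The highest was mt-Nd5, with 6183 and 6349 normalised counts against 15722 and 12625 (1.18 ± 0.07, adjusted p = 3.8e-10), and the lowest was mt-Nd1, with 44452 and 42021 against 33213 and 33241 (-0.38 ± 0.05, adjusted p = 1.4e-06). Both encode core membrane subunits of complex I.

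Of 12 regulators of mitochondrial biogenesis 10 fell (83.3%), 1 rose and 1 was not called, with a median of -0.48. The shares over all tested genes were 38.2% lower and 33.5% higher, and 47.2% lower among those with a mean normalised count over 100. Gabpa, the DNA-binding subunit of GABP, had 2880 and 2856 normalised counts against 1558 and 1723 (-0.81 ± 0.05, adjusted p = 1.2e-10), and its partner Gabpb1 fell too (-0.54 ± 0.05). Nrf1 had 1785 and 1760 against 1061 and 1077 (-0.73 ± 0.05, adjusted p = 5.1e-10). Tfam, which packs mitochondrial DNA and helps start its transcription, had 2723 and 2791 against 1764 and 1779 (-0.64 ± 0.04, adjusted p = 2.8e-10). The coactivators Pprc1 (-0.79 ± 0.05) and Ppargc1b (-0.59 ± 0.13), the mitochondrial transcription factors Tfb2m (-0.43 ± 0.07) and Tfb1m (-0.32 ± 0.12), the polymerase Polrmt (-0.35 ± 0.06) and Yy1 (-0.30 ± 0.04) fell as well. Esrra was not called (-0.12 ± 0.06, adjusted p = 0.09). Ppargc1a rose from 6.99 and 6.35 to 18.8 and 10.1 normalised counts (1.11 ± 0.46, adjusted p = 0.04), a trace level in all 4 libraries.

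A near-identical copy (at least 95% identity over at least 150 bp at another locus) was found for 22 tested members, whose median log2 fold change was -0.30 with 16 lower and 2 higher, and the 58 without had a median of -0.25 with 39 lower and 8 higher. Of all tested genes 38.2% were lower and 33.5% higher. Exons of 29 members overlap exons of another gene, in 26 cases on the opposite strand. The library kit keeps strand, but the strand setting of the counting step is not given in the sources used here.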

How the data were processed

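The authors trimmed the reads, aligned them to mm10 (GRCm38) and counted genes and repeat families together with TEtranscripts on a Gencode annotation, and deposited raw read counts of 4 libraries, which are the counts used here. A row with no gene name (0.00208% to 0.00314% of counts) was left out. Genes (16240) and repeats (1118) that passed filterByExpr were fitted together with edgeR 4.0.16 in R 4.3.3 (TMM, group only, quasi-likelihood F test, two-sided, Benjamini-Hochberg adjustment over all kept rows). A normalised count is a count divided by the effective library size times the mean effective library size. Values after ± are standard errors (n = 2 libraries per group). They were computed as the absolute log2 fold change over the square root of the F statistic. That statistic draws on variance estimates shared over all fitted rows, not on each gene alone. An exact permutation test of 2 against 2 libraries cannot give a p under 0.333 and was not used. Members and gene lists were chosen with earlier results of these data known. Named were the core members, the 3 lowest and 3 highest called of each complex, isoform sets, members not called or filtered out, the extremes of each other list and all biogenesis regulators, except that 1 core member of complex I is not reported here by itself. Symbols, coordinates and lengths came from GENCODE M21 (GRCm38), copies from blastn 2.17.0 and promoter windows from RefSeq (GRCm38.p6). The fits were tested on simulated data. Alternatives were DESeq2 1.42.0, other scalings, no filter, length offsets, a replicate block, a stricter threshold, each library left out, and, added after seeing the data, pseudogene rows left out.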

Additional observations from a re-analysis of the deposited data

How the results depend on the processing

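The count of lower members stayed between 48 and 55 and 0 members passed all study thresholds in every fit run. DESeq2 gave 53 lower and 8 higher, and 4 members lost their call (Cox6c2, Cox7a2, Ndufa11 and Ndufa7). Size factors in the manner of DESeq2 (RLE) changed no member's call. With library totals in place of TMM, 16 members were higher and 51 lower, and the medians were -0.20 over all members, -0.16 in complex I, -0.45 in II, -0.31 in III and -0.27 in V. With TMM from genes alone they were -0.23, -0.19 (I), -0.48 (II) and -0.34 (III), and with no low-count filter -0.30, -0.26 (I), -0.55 (II) and -0.41 (III). With length offsets 17 were higher, the medians were -0.18, -0.10 (I), -0.45 (II), -0.24 (III), 0.00 (IV) and -0.23 (V), and 5 members changed sign: Cox7a2 (0.00), called lower before, Ndufa2 (0.12) and Ndufa4 (0.08), which became called higher, and Ndufb3 (0.07) and Cox6c (0.04), which stayed uncalled. The cause of these shifts was not tested. The median of all genes moved between -0.04 and 0.04 under the alternative scalings. Leaving out 1 library at a time gave medians from -0.31 to -0.25 over all members, -0.53 to -0.48 in complex II and -0.43 to -0.33 in complex III, with 53 to 55 lower and 8 to 10 higher. Without either genistein library Cox6b2 was no longer tested. Libraries of the 2 groups share replicate numbers, but same-numbered libraries did not deviate together (correlation -0.03), and a fit with the replicate block gave 55 lower and 10 higher and changed no member's call. Leaving out the pseudogene rows, a choice made after seeing the data, gave 54 lower and 9 higher, and an adjusted p under 0.01 gave 54 and 8. The precision is limited by 2 libraries a group whose culture origin is not given, and in at least 1 alternative 10 called members lost their call (Cox6b1, Cox6c2, Cox7a2, Cox8a, Ndufa7, Ndufa8, Ndufa11, Ndufb7, Ndufc2 and Uqcr11) and 8 others gained 1 (Cox4i1, Cox6a1, Ndufa2, Ndufa3, Ndufa4, Ndufb6, Ndufb9 and Ndufs4).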
